A study of Saccharomyces cerevisiae with 4 samples.

Results

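The effect of growth temperature was examined in budding yeast (Saccharomyces cerevisiae) that depended on the cdc102-1 allele. Both arrays of the series titled for that plasmid were used, 1 from spores grown at 28 degree and 1 from spores grown at 30 degree, of 4 arrays in all. The members are deletion strains: 5325 strains had a named spot on the array, and 5295 of them had a value on both cdc102-1 arrays. Per the labels, a pool of 5896 heterozygous diploid deletion strains had the chromosomal CDC102 gene replaced in 1 copy by natMX, the cassette for resistance to nourseothricin (Nat). The pool then received a URA3 centromeric plasmid carrying cdc102-1, so the alleles shared by both groups are the library deletion, cdc102D::natMX and plasmid cdc102-1. Spores were plated on minimal medium without uracil, with or without Nat, and haploids were harvested after 2 days. Only double mutants living on the plasmid copy grow where Nat is present; where it is absent, single mutants grow beside them. The remaining arrays, with wild-type CDC102 on the plasmid and the same deletions, plates and temperatures, were used only for comparison.

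CDC102 is a synonym of PSF2, a gene on chromosome X for a subunit of GINS. GINS joins Cdc45 and the Mcm helicase at replication forks and is needed for every cell to copy its DNA. A synthetic lethal screen looks for deletions that a cell tolerates on their own but not together with a weakened allele of an essential gene, and raising the temperature is a common way to weaken a conditional allele further. Each strain of the deletion collection carries a pair of short tags, one on each side of the deletion cassette, that are amplified from genomic DNA and read on an array in place of the strain itself. Tags from plates without Nat were labelled with Cy5 and tags from Nat plates with Cy3.

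The deposited value of a spot is a log2 ratio of the 2 dyes. Its numerator is not stated, but Cy5 over Cy3 is likely, because the dyes are listed in that order; on that reading, a higher ratio marks a strain that was scarcer among double mutants. On that reading strains close to PSF2 would stand high, but as a set they lay near the median, as given below. Values below are averages over the spots of a strain, centred on the median strain of the array, so 0 is the median strain and 1 unit is a 2-fold difference in ratio. The arrays were grouped by title; the label text of both wild-type samples also calls the sporulated pool cdc102-1. Each group is 1 array of 1 pool, whether both temperatures came from 1 sporulation is not stated, and no difference below has a replicate or a test. Strains were instead counted by size, as higher or lower by at least 1, and each was read in both of its tags.

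The 30 degree array was the wider and the less complete of the pair. The SD over strains of the centred ratio was 0.73 at 28 degree and 1.03 at 30 degree, against 0.65 and 0.77 with wild-type CDC102. Of 18794 named spots, 16 had no value at 28 degree and 727 (3.87%) had none at 30 degree, against 65 and 399 with CDC102. Correspondingly, 342 of the strains compared lacked a tag on an array, and 30 strains, among them those of the replication gene ORC1 and the heat shock factor HSF1, had no value at 30 degree and were not compared. The tags of a strain correlated at Pearson r 0.43 at 28 degree (5319 strains) and 0.47 at 30 degree (4958 strains), as a description over strains that share an array.

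With cdc102-1, 206 strains were at least 1 higher at 30 than at 28 degree, which is 3.89% of the 5295 compared. More strains were lower, 447 or 8.44%. The median difference was 0.01 with an interquartile range of -0.32 to 0.31 and an SD of 0.75. The balance of both directions depended on the scaling and on which strains were kept. Of the strains past 1, 31.5% were higher. That share was 44.5% after quantile normalization (220 higher and 274 lower) and 40.2% with the arrays scaled to the same spread (237 and 352). It was 48.0% among strains whose tags differed by less than 1 on both arrays (86 higher and 93 lower). Both tags were past 1 in the same direction in 71 strains that were higher (1.43% of 4953) and in 139 that were lower (2.81%), while 27 strains had the first tag higher and the second lower by at least 1, and 18 the reverse. Over those 4953 strains the differences of the tags correlated at Pearson r 0.30 and Spearman rho 0.40. With wild-type CDC102 the counts were smaller: 161 of 5317 strains were higher (3.03%) and 264 lower (4.97%), and with both tags 26 (0.509%) and 61 (1.19%).

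**Figure D1:**
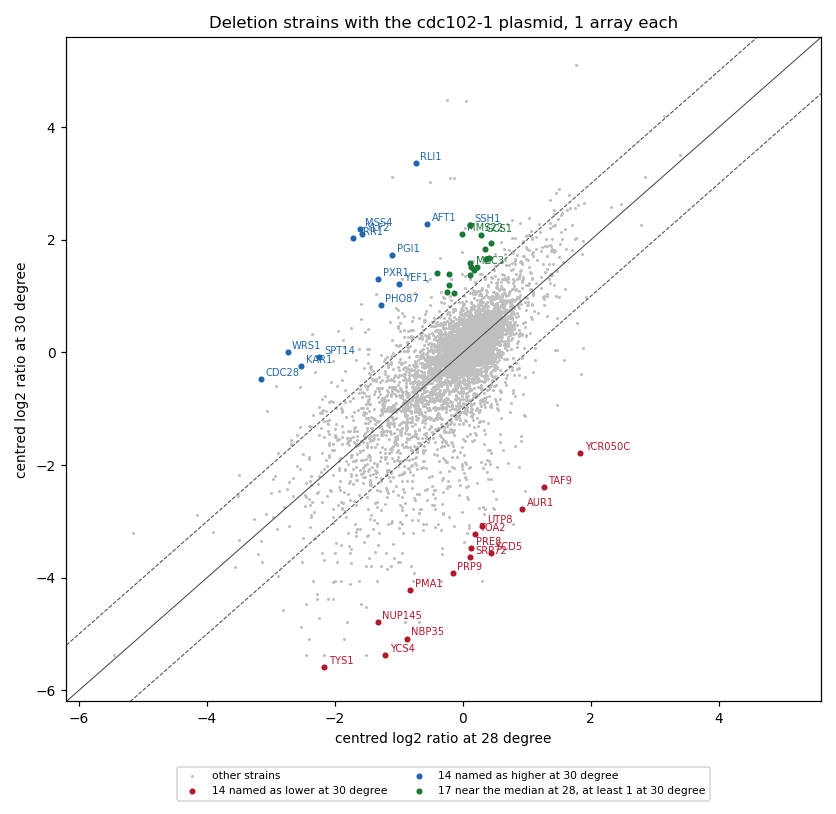
Centred log2 ratio of each deletion strain at 28 degree (x axis) and 30 degree (y axis) with the cdc102-1 plasmid, 1 array each; the solid line is equality and the dashed lines a difference of 1. Blue and red points are the 14 strains with the highest and the lowest difference among those with both tags past 1, and green points are 17 strains near the median at 28 degree and at least 1 at 30 degree; 13 of the 14 blue points lie below 0 at 28 degree, and all 14 red points lie at -1 or below at 30 degree.

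The strains that were higher started mostly low. Of the 206, 86 were at -1 or below at 28 degree, and the median ratio over the 206 was -0.81 at 28 degree and 0.66 at 30 degree. At 30 degree 86 of the 206 were at 1 or above, and 18 were still at -1 or below. The strains that were lower started closer to the median: 213 of the 447 lay within 0.5 of it at 28 degree, 375 lay at -1 or below at 30 degree, and the median ratio was -0.24 and then -2.04. Just inside the size limit stood SEN34, SKN7 and LCP5 at 1.00, and just outside it TPO2 and ALA1 at 0.99; on the lower side GAB1 was inside at -1.0016 and POA1 outside at -0.9997.

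Several differences of the greatest size came from a strain read in only 1 tag at 30 degree. HAP3, a subunit of the CCAAT-binding transcription factor, was at -0.25 at 28 degree and 4.48 at 30 degree. HAB1 was at 0.05 and 4.46, and SSA3, a cytosolic Hsp70, at -1.11 and 3.11. None of these 3 had a value of its first tag at 30 degree. At the other end MCM1, an essential transcription factor of cell cycle and mating type genes, was at 0.30 and -4.05 and lacked its second tag. The strains described next are therefore those with both tags past 1 in the same direction.

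Among these, RLI1 stood highest. The deletion of RLI1, an essential ATPase that splits ribosomes after termination and carries iron-sulfur clusters, had a centred ratio of -0.74 at 28 degree and 3.37 at 30 degree. Its difference was 4.11, from 2.34 in the first tag and 5.87 in the second. The spot numbered next to the second RLI1 tag belongs to ILT1 and differed by 7.37, while the other tag of ILT1 differed by -0.30; the part of array position was not tested. With wild-type CDC102 RLI1 was 1.55 higher, so it was past 1 in the same direction with both plasmids, the only one of the 14 highest strains to be so. Its tags with CDC102 were at 0.70 and 2.40.

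Regulators and metabolic enzymes followed RLI1 among the highest. Of regulators, the deletion of YRR1, a transcription factor for multidrug resistance genes, was at -1.73 at 28 degree and 2.04 at 30 degree, and that of AFT1, the activator of the iron uptake regulon, at -0.56 and 2.28. Of membrane and metabolic enzymes, MSS4, a phosphatidylinositol phosphate kinase of the plasma membrane, was at -1.61 and 2.20. PGI1, phosphoglucose isomerase, was at -1.11 and 1.73. These deletions were all below the median strain at 28 degree and at least 1.73 above it at 30 degree, while with wild-type CDC102 MSS4 and PGI1 were lower at 30 degree, by -1.02 and -1.45. The CDC102 tags were at -0.37 and -1.66 for MSS4, and at 0.15 and -3.06 for PGI1. YEF1, an NADH kinase, was at -0.996 and 1.22, and PHO87, a phosphate transporter, at -1.29 and 0.85. YLF2 was at -1.58 and 2.10. PXR1, which works in ribosomal RNA maturation, was at -1.33 and 1.30.

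A further group of the highest strains only came back to the median. WRS1, the cytosolic tryptophanyl-tRNA synthetase, was at -2.74 at 28 degree and 0.0021 at 30 degree. CDC28, the cyclin-dependent kinase of the cell cycle, was at -3.16 and -0.48. KAR1, a spindle pole body protein, was at -2.53 and -0.25, and SPT14, which begins the synthesis of GPI anchors, was at -2.24 and -0.08. All 4 genes are essential, and a haploid that lacks one does not grow, but spot intensities were not used here and the part of low signal was not tested. Of the 14 highest strains 6 lack an essential gene, and each of the 14 rests on 1 spot per tag. The share of essential genes among all strains was not counted.

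The 14 lowest strains were nearly all deletions of essential genes, 13 of 14, with no count over all strains to set beside it. NBP35, a scaffold protein of cytosolic iron-sulfur assembly, was at -0.88 at 28 degree and -5.08 at 30 degree, and YCS4, a condensin subunit, at -1.22 and -5.37. SCD5, which works in clathrin function and actin organisation, was at 0.44 and -3.57. PRP9, a splicing factor of the U2 particle, was at -0.16 and -3.92. The next deletions were of genes with nuclear or cytosolic roles. TAF9, a subunit of TFIID and SAGA, was at 1.26 and -2.39, and TOA2, a subunit of TFIIA, at 0.18 and -3.23. SRP72, of the signal recognition particle, was at 0.12 and -3.63, and PRE8, a proteasome core subunit, at 0.13 and -3.47. NUP145, a nucleoporin, was at -1.33 and -4.79, and TYS1, the tyrosyl-tRNA synthetase, at -2.17 and -5.58. UTP8, of the small-subunit processome and tRNA export, was at 0.30 and -3.08.

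Enzymes of the plasma membrane and its lipids were in the same set. AUR1, which makes inositol phosphorylceramide, was at 0.92 and -2.79, and PMA1, the proton pump, was at -0.83 and -4.21. The remaining strain, YCR050C, had the highest value of the 14 at 28 degree, 1.83, and was at -1.79 at 30 degree. In 10 of the 14 a spot at 30 degree had a ratio of 0.05 or less, where rounding of the deposited ratios to 0.01 makes the log2 value coarse. NBP35 and NUP145 have spots with adjoining numbers in both tags. Of 96 spots numbered next to one of these 28 highest and lowest strains, 16 were past 1 in the same direction and 8 in the opposite one. Of all named spots 13.7% were past 1, counted in both directions together. Over 10296 pairs of adjoining spots of different strains the differences correlated at Pearson r 0.019.

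**Figure D2:**
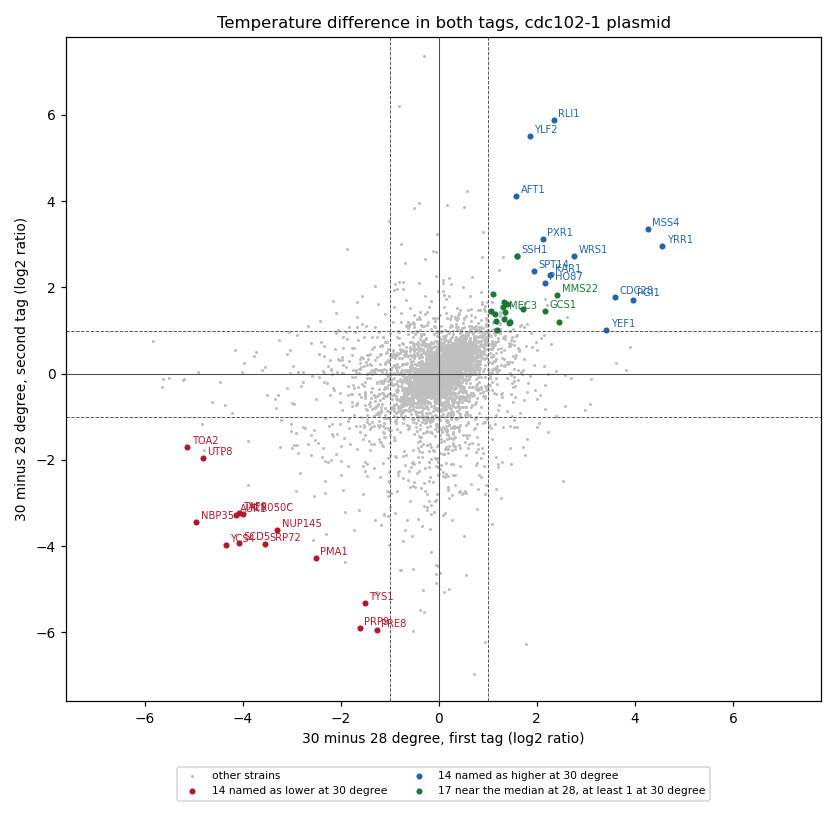
Difference between 30 and 28 degree (log2 ratio) in the first tag (x axis) and the second tag (y axis) of each strain with the cdc102-1 plasmid; dashed lines mark a difference of 1. The tags correlate weakly over all strains (Pearson r 0.30). Coloured are the 14 highest, the 14 lowest and the 17 strains near the median at 28 degree, chosen with both tags past 1. Other strains with both tags past 1 in the same direction are grey.

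A smaller set of strains lay near the median at 28 degree and stood out at 30 degree. These had a centred ratio within 0.5 of 0 at 28 degree, at least 1 at 30 degree, and both tags at least 1 higher. The limits on the ratio applied to the strain average, so a tag could lie outside them. The category was set after the values had been seen. It held 17 strains, 0.343% of the 4953 with both tags. The same rule gave 2 strains, ELO1 and IML2, with wild-type CDC102 (0.0391% of 5113). In the opposite direction, 55 strains (1.11%) lay near the median at 28 degree and at -1 or below at 30 degree with both tags, against 28 (0.548%) with CDC102.

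Of genes that act on DNA, the set held MMS22, MEC3, SWI3 and HMO1. MMS22 links the Rtt101 ubiquitin ligase to damaged or stalled forks, and its deletion was at -0.01 at 28 degree and 2.11 at 30 degree, with tag differences of 2.41 and 1.82. With wild-type CDC102 it was also higher at 30 degree, by 1.09, the only one of the 17 past 1 there. The CDC102 tags of MMS22 were at 1.82 and 0.37. MEC3, a subunit of the checkpoint clamp that loads at damaged DNA, was at 0.13 and 1.52, a difference of 1.39 from tags at 1.34 and 1.44. It has repeat spots on the array, and the standard error over them was 0.038; with CDC102 MEC3 was at -0.59, so the plasmids differed in sign. SWI3, a core subunit of the SWI/SNF chromatin remodeller, was at 0.11 and 1.58 with a standard error of 0.20, and its difference of 1.48 became 1.00 with the median over spots. HMO1, an HMG-box protein of ribosomal DNA and ribosomal protein promoters, was at -0.25 and 1.07.

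A further 5 of the 17 work in the Golgi, endosomes or endoplasmic reticulum. GCS1 and GLO3 are GTPase-activating proteins for Arf, the GTPase that buds vesicles from the Golgi. GCS1 was at 0.28 and 2.08, with tag differences of 2.16 and 1.45. Its standard error of 0.035 is over repeat spots of the same hybridisation and leaves out the gap between the tags. GLO3 was at 0.44 and 1.94, with its tags at -0.24 and 1.12 at 28 degree. RCY1, an F-box protein of endosome-to-Golgi recycling, was at 0.35 and 1.85. SSH1, the alternative protein channel of the endoplasmic reticulum, was at 0.11 and 2.27, the greatest difference of the set at 2.16. HOC1, a subunit of the Golgi mannan polymerase, was at -0.22 and 1.20. These 5 strains had CDC102 differences of 0.33, 0.43, 0.53, -0.60 and 0.26 in the order named, all smaller than 1 in size.

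The other members had varied roles. CCT3, an essential subunit of the cytosolic chaperonin, was at -0.40 at 28 degree and 1.42 at 30 degree. MAL33, an activator of maltose genes, was at -0.22 and 1.39, and HMG1, an HMG-CoA reductase of sterol synthesis, at 0.22 and 1.52. SPH1, of polarised growth, was at 0.37 and 1.66, and MIG1, the glucose repressor, at 0.17 and 1.46. The MIG1 difference of 1.29 was above that of either tag, 1.19 and 1.00, because its average rested on different spots on each array. CTR1, the copper transporter, was at 0.41 and 1.67, SAC6, the actin bundler fimbrin, at -0.14 and 1.06 with a standard error of 0.47 over repeat spots, and YML096W at 0.11 and 1.37. Over the 17 strains the CDC102 difference had a median of 0.02 and ran from -0.77 to 1.09. A limit of 0.25 in place of 0.5 at 28 degree left 10 strains. After quantile normalization 10 of the 17 differed by less than 1, among them GLO3 at 0.82, RCY1 at 0.85, SWI3 at 0.89 and MEC3 at 0.83, and the lowest was CTR1 at 0.64.

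**Figure D3:**
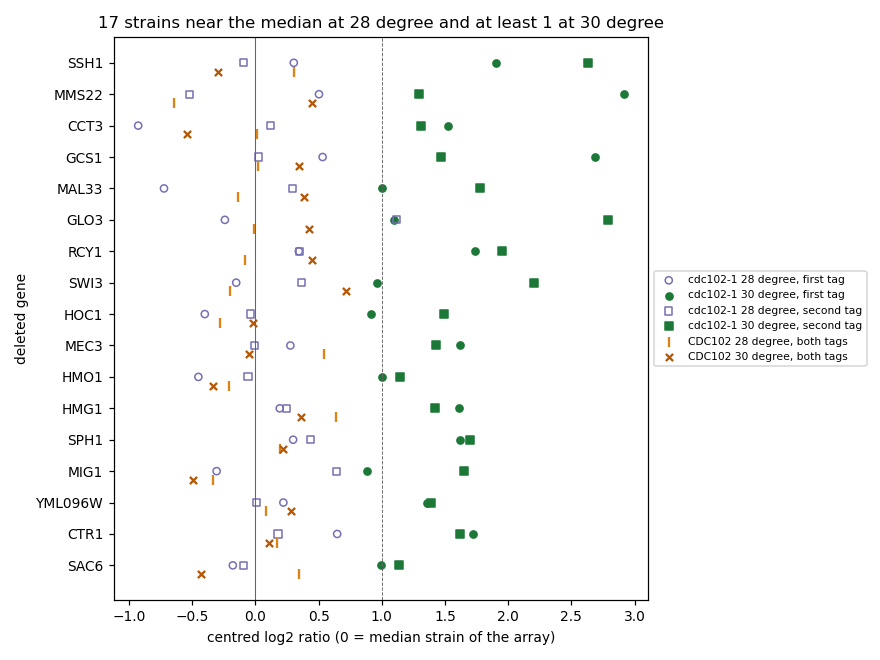
Centred log2 ratio (x axis) of the 17 strains that lay within 0.5 of the median at 28 degree and at 1 or above at 30 degree with cdc102-1, by deleted gene (y axis). Purple open symbols are 28 degree and green filled symbols 30 degree, circles the first and squares the second tag. Orange marks give the strain average with wild-type CDC102 at 28 degree (bar) and 30 degree (cross). The strains were chosen for a cdc102-1 difference of at least 1 in both tags, so a narrower gap with CDC102 follows largely from that choice.

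Strains with many repeat spots gave a narrower picture. For 793 strains at least 6 spots read each tag; the SD of their differences was 0.51, against 0.79 for the other 4502, and the median standard error over repeat spots was 0.037. That error leaves out the gap between the tags of a strain. Of the 793, 30 were higher and 21 lower, and with both tags 12 and 7. Beside GCS1, RCY1, SWI3, HOC1, MEC3, SPH1, MIG1 and SAC6, the 12 held ELO2, an elongase of very long fatty acids (-0.49 and 0.98), SNF2, the ATPase of SWI/SNF (-0.30 and 0.89), the adaptor subunit gene APM3 and the stress response gene WHI2. RPA49, a non-essential subunit of RNA polymerase I, was the lowest of the 7, at -0.06 at 28 degree and -2.53 at 30 degree. ELO3, the elongase that follows ELO2 in the same pathway, was at -0.57 and -2.43, the opposite direction to ELO2. RPL39, NGG1, FKS1, HHT2 and AKR1 completed the 7 with differences of -1.39, -1.38, -1.23, -1.16 and -1.11.

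Genes of these complexes were then read together, in lists drawn up after their first members had been seen. Each list was built around a member already seen to be past 1, so its count is no evidence about the complex, and over all strains 3.89% were higher. In SWI/SNF 3 of 8 strains were higher, SWI3 by 1.48, SWI1 by 1.31 and SNF2 by 1.19, and SNF12 was lower by -1.40; the median was 0.35 against 0.01 over all strains, and 1 of 8 was higher after quantile normalization. In the Golgi mannan polymerase 3 of 6 were higher, HOC1 by 1.42, ANP1 by 1.23 and VAN1 by 1.12, with a median of 0.66. Of these HOC1 was past 1 in both tags, the tags of ANP1 were at 2.39 and 0.07, and with the median over spots 1 of 6 was higher and the median was 0.42. Of the Arf GTPase-activating proteins 2 of 4 were higher, and AGE1 and AGE2 were at -0.85 and -0.58. The checkpoint clamp had no other member past 1: beside MEC3 the difference was -0.33 for RAD17, -0.34 for DDC1 and 0.23 for the loader RAD24. Of RNA polymerase I, RPA12 was at -1.27, RPA34 at 0.41 and RPA14 at 1.21. Of the cytosolic chaperonin, CCT3 was the 1 of 8 strains that was higher, by 1.82, while CCT2 was at -1.07 and CCT4 at -3.86, the last read in the first tag alone at 30 degree; the list median was -0.41. The translocon list had SSH1 higher and 2 of 9 strains lower, and of the endosome recycling list RCY1 and VPS1, a dynamin-like GTPase at 1.32, were higher among 8.

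Replication and repair genes outside the essential lists were mostly close to the median strain on both arrays. The list of essential replication genes, which were lower, is described further on. None of the 13 non-essential fork factors was past 1 in either direction; their median was 0.17, and TOP1 at 0.45 and DPB4 at -0.29 were the extremes. RAD27, the flap endonuclease, was at -1.24 and -0.81. Homologous recombination (9 strains, median -0.16) and the Sgs1, Mus81 and Slx list (11 strains, median -0.06) also had no strain past 1, although the sign of the last turned under 4 other settings, quantile normalization among them (0.04). The list of 11 checkpoint strains was not limited to non-essential genes. In it MEC3 and LCD1, which encodes the partner of the kinase Mec1, were higher, LCD1 from -1.11 to 0.22, with a list median of 0.09. MMS22 was the only one of 9 strains of the Rtt101 and histone H3 acetylation list to pass 1, and its partner MMS1 was at -0.28 and 0.31.

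Lower strains among the repair genes were few. CHL1, a cohesion helicase, was at -0.92 and -2.14, with tags at -2.01 and -0.44, in a list of 6 with a median of 0.06 that turned to -0.02 without centring and -0.05 in the first tag. RAD18, the ubiquitin ligase of post-replication repair, was at 0.25 and -1.23, in a list of 9 with a median of -0.04. In chromatin and kinetochore lists the medians were 0.14 for 10 Swr1 strains (-0.17 after quantile normalization and below 0 under 3 other settings), 0.46 for 9 COMPASS strains (-0.06 after quantile normalization, 0.02 in the first tag and 0.04 on spots present on both arrays), 0.22 for 5 spindle checkpoint strains and 0.02 for 10 Ctf19 strains (-0.06 without centring). SWR1 itself was at 1.02 and 2.09, and NKP2, an inner kinetochore protein, at 0.77 and 2.35 with tags at 1.65 and 1.52. The values of SWC3 (1.23) and SWD1 (1.47) rested on a different set of tags on each array, and on spots present on both they were at -0.18 and 0.04.

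Strains of the secretory pathway included several that were already high at 28 degree and higher at 30 degree. The GET pathway inserts tail-anchored proteins into the endoplasmic reticulum. GET1, part of its membrane receptor, was at 3.15 at 28 degree and 4.20 at 30 degree, and GET3, its targeting ATPase, at 1.495 and 2.91. All 6 measured strains of the list were above 0, with 2 past 1 and a median of 0.64. Over all strains 3.89% were at least 1 higher and the median was 0.01, so nearly as many lay below 0 as above. After quantile normalization no strain of the list was at least 1 higher, 1 was lower and the median was 0.23, and none was past 1 when the arrays were scaled to the same spread (median 0.34). With wild-type CDC102 the median was 0.00 and no strain passed 1. GET1 was at -0.51 after quantile normalization. GET2, the other part of the receptor, was at 3.40 and 3.51. Of 12 strains of the Golgi GTPases and GARP tether, 8 were above 0, with a median of 0.41 (0.02 after quantile normalization); ARL1, an Arf-like GTPase, was at 1.36 and 2.70, and its effector MON2 at 1.53 and 2.45. Among 16 ESCRT strains VPS36 (1.21 and 2.13) was higher by 0.93 and VPS28 (0.20 and -1.47) lower by -1.68, with a median of 0.19 that turned to -0.03 after quantile normalization.

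Acidification and sterol genes had positive medians as well, where the median over all strains was 0.01. The vacuolar proton pump had 13 of 17 strains above 0 and a median of 0.34 (0.12 in the second tag); VMA8 was at -1.11 and -0.07, and VMA21, its assembly factor, at -0.38 and 0.63. With wild-type CDC102 the median of these strains was 0.08 and none passed 1. In late ergosterol synthesis 6 of 8 strains were above 0, with a median of 0.71 (0.26 over the 4 strains whose tags differed by less than 1). NCP1, the reductase that feeds electrons to sterol enzymes, was at -1.63 and 0.07, and was 1.15 higher with CDC102 as well. ERG24 was at -0.33 and 0.51, and ERG2 at 0.30 and 1.13. ERG4, the last enzyme of the pathway, was at 0.89 and 2.29, from the first tag alone at 30 degree.

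**Figure D4:**
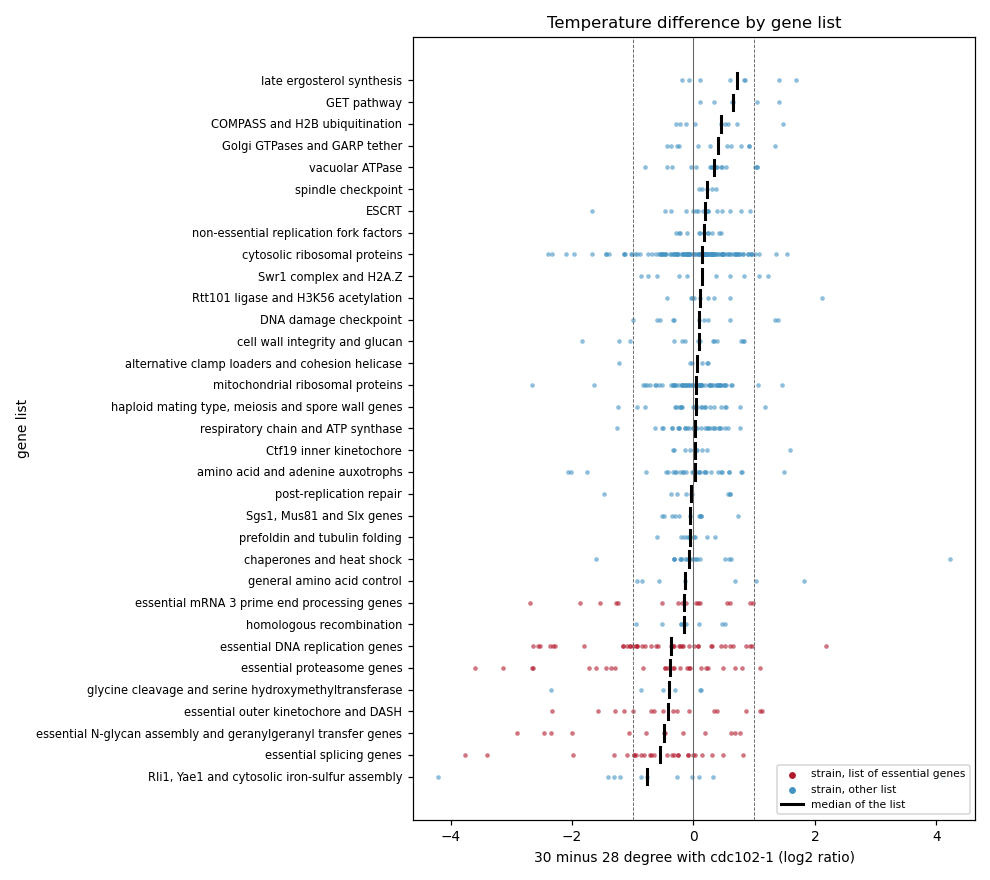
Difference between 30 and 28 degree with cdc102-1 (log2 ratio, x axis) of each measured strain in 33 gene lists (y axis), ordered by the median of the list (black bar); red points are lists of essential genes and blue points other lists, and dashed lines mark a difference of 1. The 6 lists of essential genes have medians between -0.15 and -0.55, while ergosterol synthesis (0.71) and the GET pathway (0.64) stand at the top. Blue lists can also hold essential genes, such as RLI1 and NBP35 of the iron-sulfur list.

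Among deletions of essential genes, many were lower at 30 degree. Over the 6 essential lists together, 42 of 140 strains were lower (30.0%, against 8.44% of all strains) and 4 were higher, with a median of -0.40. The split depended on the scaling and on which strains were kept. After quantile normalization 25 were lower and 11 higher with a median of -0.18. Of the 28 strains whose tags differed by less than 1 on both arrays, 3 were lower and 1 higher. The median ratio of these strains was -0.71 at 28 degree and -1.04 at 30 degree. Of their 286 spots 1 had no value at 28 degree and 36 had none at 30 degree, and spots at a ratio of 0.05 or less numbered 4 and 15; the part of low signal in the difference was not tested. With wild-type CDC102, 25 of 142 were lower and 11 higher, with a median of -0.27 and 13 spots without a value at 30 degree. Of 107 strains with both tags, 14 were lower and 0 higher with both past 1.

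Essential replication genes had counts close to those of all essential lists together. Of 43 strains 13 were lower and 1 higher, with a median of -0.38, and in the wild-type pair the median was -0.35. After quantile normalization 7 were lower and 5 higher, and in the second tag alone the median was -0.07. CDC9, the DNA ligase of Okazaki fragments, was at -1.08 and -3.64, and PRI2, a primase subunit, at -0.04 and -2.35, each lower in both tags. DBF4, the activator of the Cdc7 kinase, was at 0.07 and -2.57, from the first tag alone at 30 degree, and POL3, the catalytic subunit of DNA polymerase delta, at -0.63 and -3.15 with tags at -0.52 and -4.53. The other essential lists had 5 of 26 lower for splicing (median -0.55), 9 of 26 for the proteasome (-0.38, and 0.48 among strains whose tags agreed within 1), 5 of 16 for mRNA 3 prime end processing (-0.15), 5 of 16 for the outer kinetochore and DASH (-0.42, with 2 higher) and 5 of 13 for N-glycan assembly and geranylgeranyl transfer (-0.49, but 0.07 after quantile normalization and 0.19 among strains whose tags agreed within 1). RPN6, a proteasome lid subunit, was at 0.35 and -2.79, and ALG2, a mannosyltransferase, at -2.53 and -4.87.

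The iron-sulfur list held RLI1 and NBP35, the highest and the lowest of the strains with both tags past 1. Beside them, YAE1, which helps to load the cluster of Rli1, was at 0.98 and -0.43, CIA2 at -0.82 and -2.13, and CFD1, the partner of Nbp35, at -0.07 and -1.27. In all, 4 of 11 strains were lower (36.4%) and 1 higher, with a median of -0.77, against a median of 0.23 with CDC102. Over all strains 8.44% were lower and 3.89% higher, and over the 6 essential lists 30.0% were lower. This list was not counted among those 6, but it holds essential genes, RLI1 and NBP35 among them, and they were not set apart. With both tags past 1, 1 of the 11 strains was lower and 1 higher, NBP35 and RLI1. The median of the iron-sulfur list was -0.21 with 2 lower after quantile normalization and -0.19 in the second tag. Of the 7 general amino acid control strains YIH1 (-0.56 and 1.26) and GCN20 (-1.61 and -0.58) were higher, with a list median of -0.14 that turned to 0.40 in the first tag. GCV3, a glycine cleavage subunit, was at -1.77 and -4.11 and also lower with CDC102, by -2.98, in a list of 6 with a median of -0.40.

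The broad housekeeping lists had medians near that of all strains. Cytosolic ribosomal proteins had a median of 0.14 over 127 strains (-0.01 in the second tag), with 4 higher and 13 lower; RPL14A was at 0.91 and -1.48 and RPS16B at 0.34 and -1.98. Mitochondrial ribosomal proteins (64 strains, 2 higher and 2 lower) and the respiratory chain (32 strains, 0 higher and 1 lower) had medians of 0.04 and 0.02, both below 0 without centring. Auxotrophs, which the minimal plates select against, had a median of 0.02 over 32 strains with 1 higher and 3 lower, and turned to -0.07 in the second tag and -0.06 without centring. Mating and meiosis genes had a median of 0.04 over 24 strains, with 1 in each direction, and turned to -0.03 in the second tag and without centring. Cell wall integrity (14 strains, median 0.09) had 3 lower, among them the glucan synthase FKS1 at -0.14 and -1.37. Chaperones (20 strains, -0.08) and prefoldin (10 strains, -0.06) had 2 and 0 strains past 1.

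The strain deleted for PSF2 itself and its neighbours had differences of both signs. PSF2 was at -0.14 at 28 degree and 0.04 at 30 degree. Of the nearest measured strains on either side, NET1 was at -1.07, JEM1 at -0.49, YJL070C at -0.57 and UTP18 at -0.70 in the difference, while SMC3 was at 0.51, with tags of opposite sign, and ARG2 at -0.18. Within 50 kb of PSF2, where a library deletion and natMX are linked and seldom come together in 1 spore, 43 strains had a median ratio of -0.03 at 28 degree and -0.02 at 30 degree, with a median difference of -0.14. If a higher ratio marks a strain scarcer among double mutants, these strains and PSF2 itself would stand high on both arrays. Above 1 stood only 3 of the 43 at 28 degree and 1 at 30 degree. The reading of the ratio was not tested. Of the 43, 2 were higher and 6 lower, against 3.89% and 8.44% of all strains. Over the 16 chromosomes the median difference lay between -0.05 and 0.11.

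Most strains past 1 with cdc102-1 were not past 1 in the same direction with wild-type CDC102. The overlap was above the share of all strains in the same direction and in the opposite direction alike. The pairs share no array, and 5288 strains were measured in both. Of the 203 higher strains with cdc102-1, 19 (9.36%) were also among the 157 with CDC102 (12.1% of those), where 2.97% of all strains were higher. In the opposite direction 25 of the 203 (12.3%) were lower with CDC102 by at least 1, against 4.82% of all strains. Of the 445 lower strains 68 (15.3%) were among the 255 with CDC102 (26.7%), where 4.82% of all strains were lower. Another 42 of the 445 (9.44%) were higher with CDC102, against 2.97% of all strains. Across strains the differences with the plasmids correlated at Pearson r 0.063 and Spearman rho 0.073, given as a description since strains of 1 array are not independent. The difference between the plasmids in their temperature differences has 1 array in each cell and was not tested.

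**Figure D5:**
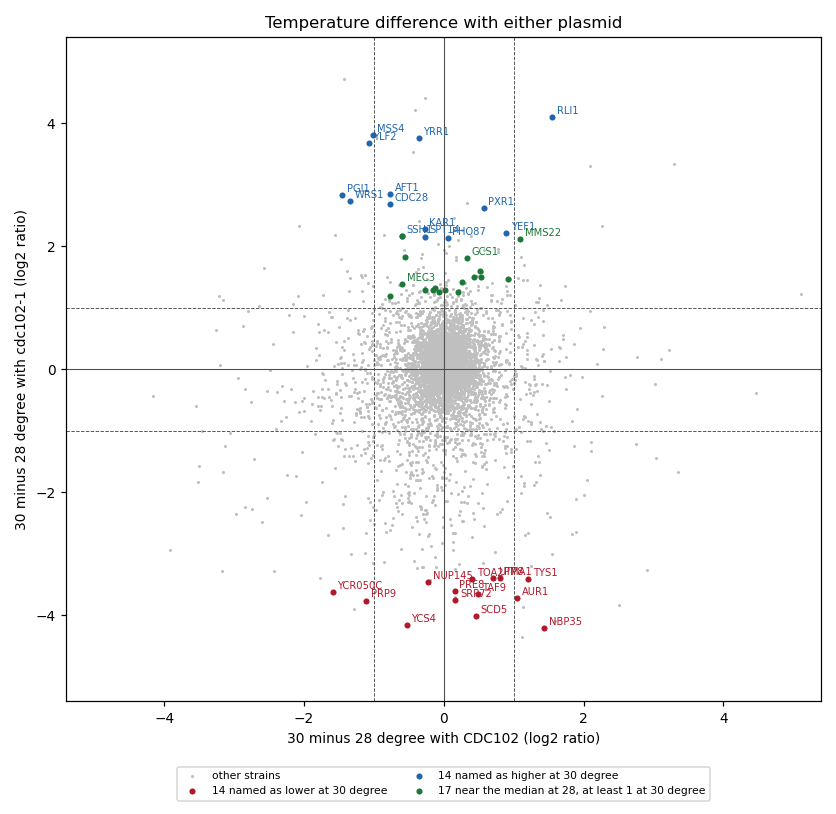
Difference between 30 and 28 degree (log2 ratio) with wild-type CDC102 (x axis) and with cdc102-1 (y axis) for each strain measured on all 4 arrays; dashed lines mark a difference of 1, and colours are as named in the key. RLI1 and MMS22 are the labelled strains past 1 in the upward direction with both plasmids, and most other labelled strains lie within 1 of 0 on the x axis.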

How the data were processed

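Per the labels, tags were amplified from genomic DNA, although the molecule field names RNA, hybridised to a Hopkins tag array, scanned with a GenePix 4000B and read with GenePix 5.1. The authors deposited 1 log2 ratio of the dyes per spot; the ratios had been rounded to 0.01, and for background correction and normalization nothing is stated in the sources used here. Of 22575 spots, 18794 had 1 gene symbol in the platform annotation, 0 several and 3781 none; 5321 of 5325 strain identifiers matched a RefSeq gene table (assembly R64). The stand-in ratio of 1000000 (3 spots on these arrays) was dropped. Spots were averaged per strain, arrays centred on their strain median, and 30 minus 28 degree taken, with Python 3.11.15, pandas 2.3.3 and numpy 2.4.6. Both tags were read apart; which is the uptag is not told.

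With 1 array per group no test was run, and strains were counted at a difference of 1. Intensities were not used, so signal over background is unknown. The strains named were the 14 highest and the 14 lowest with both tags past 1 in the same direction, PSF2 with the 3 nearest strains to its left and right, and the members of 33 lists with the greatest differences, 4 at most per list. Strains of the category near the median at 28 degree, of 9 further lists, with repeat spots or with a missing tag were named after their values were seen. Members and lists were chosen with earlier results of these data known. The scripts were tested on simulated data.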

Additional observations from a re-analysis of the deposited data

Results flagged for a closer look

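Of the 44 strains considered (the 28 highest and lowest with both tags and the 17 near the median at 28 degree, SSH1 being in both), 7 had temperature differences of at least 1 in opposite directions with the plasmids. With cdc102-1 against wild-type CDC102, the difference was 3.80 and -1.02 for MSS4, 3.68 and -1.08 for YLF2, 2.84 and -1.45 for PGI1, and 2.74 and -1.34 for WRS1. It was -4.20 and 1.44 for NBP35, -3.71 and 1.05 for AUR1, and -3.41 and 1.21 for TYS1. In the same direction with both plasmids 4 of the 44 were past 1: RLI1 (4.11 and 1.55), MMS22 (2.12 and 1.09), PRP9 (-3.76 and -1.11) and YCR050C (-3.62 and -1.59). Over all strains, 12.3% of those higher and 9.44% of those lower with cdc102-1 were past 1 in the opposite direction with CDC102. The difference between the plasmids was not tested, since each value rests on 1 array per temperature. Each of the 7 strains has 1 spot per tag. The choice by both tags was made with cdc102-1 only. With CDC102, WRS1 alone of the 7 was past 1 in both tags, at -1.13 and -1.56. The others were past 1 in 1 tag, such as PGI1 at 0.15 and -3.06 and TYS1 at 0.03 and 2.39. Of the 4 in the same direction, YCR050C alone was past 1 in both CDC102 tags, at -1.20 and -1.97.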

How the results depend on the processing

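No direct test was possible with 1 array per group, and intensities were not used, so limits of signal are unknown beyond rounding, which makes ratios of 0.05 or less coarse. No paired analysis was possible because each group has 1 array and no replicate number. With cdc102-1, the count of 206 higher strains became 86 among strains whose tags differed by under 1 on both arrays, 64 and 34 at sizes of 1.5 and 2, and 71 with both tags past 1. The count of 447 lower strains became 93, 237, 149 and 139 under the same settings in that order, and 274 after quantile normalization. With CDC102, the 161 higher strains became 34, 54, 23 and 26, and 244 after quantile normalization, and the 264 lower strains became 51, 110, 55 and 61. The 17 strains near the median at 28 degree became 10 at a limit of 0.25, chosen after seeing the data. In the first tag alone SWC3 was at -0.20, FES1 at 0.067, MRP21 at 0.50, PFS2 at 0.26 and RPN2 at 0.93, and in the second alone NSL1 was at 0.062, PKC1 at 0.96, PRP46 at 0.041 and STE12 at -0.71, all opposite in sign to their averages. SWC3 was at -0.18 on spots present on both arrays, an alternative chosen after seeing the data, and GET1 at -0.51 after quantile normalization. Of 2059 values over 202 strains 32 were opposite in sign to the reported value, 11 of them where the reported difference was at least 1 and 21 where it was smaller. Of 473 list medians 35 changed sign, in 20 of 43 lists. The causes were not tested.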

Other observations

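Beyond the strains described above, the 55 deletions that lay near the median at 28 degree and at -1 or below at 30 degree with both tags touched further processes, read after their values were seen. Essential genes were not set apart among the 55, which also held members of the essential lists such as PRI2 and RPN6. Over the 6 essential lists 30.0% of strains were lower, against 8.44% of all strains. The part of low signal was not tested. ABF1, a general regulatory factor of promoters and replication origins, was at 0.47 and -2.76, and HTB2, a histone H2B copy, at 0.31 and -2.74. Ribosome production was represented by UTP13 (0.34 and -2.87), NOP8 (0.09 and -3.11), ESF2 (-0.33 and -3.47) and RPF2 (0.02 and -2.13). SUP35, the translation termination factor that acts before Rli1 splits the ribosome, was at -0.31 and -2.87, the opposite direction to RLI1. TOR2, a growth-regulating kinase, was at -0.32 and -2.47, and YPD1, of the osmotic stress relay, at -0.23 and -2.38. With wild-type CDC102 SUP35 and TOR2 differed by -0.01 and -0.17, while RPF2 was lower with both plasmids, by -2.15 and -1.97.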
